A study of Homo sapiens with 58 samples.

Results

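The survival and apoptosis targets of HuR described here are 7 genes: PTMA, MCL1, XIAP, BCL2L1, CYCS, SIRT1 and BIRC5. They were chosen by gene name from a table of peaks of RNA crosslinked to HuR, and every peak that the table assigns to them was taken, 151 of 387214. These peaks held 4078 of the 7887093 sequence tags in peaks, or 0.0517%. By annotation class, 54 of the 151 peaks lay in 3'UTRs, 85 in introns, 2 in 5'UTRs, 1 in coding sequence, 5 in transposable elements and 4 in a remaining class named Other.

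The study mapped where HuR, the RNA-binding protein encoded by ELAVL1, touches RNA in Huh-7.5 cells, a human hepatoma line, by crosslinking with ultraviolet light, immunoprecipitation of HuR and sequencing (CLIP-seq). Of the 58 libraries, 12 came from wild-type cells without proximity labelling that were separated into a cytoplasmic and a nuclear fraction, with 3 libraries for each fraction and treatment. The other 46 came from 3 lines carrying APEX, a peroxidase that biotinylates nearby proteins when given biotin phenol and hydrogen peroxide, sent by a targeting signal into nuclei (NLS lines) or the cytoplasm (NES lines) or joined to G3BP1, a protein of stress granules (G3BP lines). From these lines, 29 enriched libraries had a streptavidin capture and 17 input libraries did not. In every set, cells were either mock treated or given sodium arsenite at 0.5 mM for 45 min, which evokes oxidative stress and stress granules. All groups thus share 1 hepatoma line, and all 12 fraction libraries belong to 1 library set (JL0380), so fractionation and library set cannot be told apart when fractions are set beside the APEX lines. The labels do not say whether libraries of a group came from separate cultures, and p-values measure only the spread between these libraries, which may be technical.

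As background, HuR binds uridine-rich and AU-rich stretches, mostly in introns and 3'UTRs, and is known for stabilising messages of growth and survival genes. It is mainly nuclear, and a part of it moves to the cytoplasm under stress. Apoptosis through mitochondria is held back by BCL2-family guardians such as MCL1 and BCL-XL (the long product of BCL2L1), starts when cytochrome c (CYCS) leaves mitochondria to build the apoptosome with APAF1, and is restrained further down by inhibitor of apoptosis proteins such as XIAP. Survivin (BIRC5) belongs to the same protein family and also serves in cell division, prothymosin alpha (PTMA) is a small acidic nuclear protein reported to restrain the apoptosome, and SIRT1 is a deacetylase that acts on p53 among other proteins.

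The 3'UTR peaks of the members that fell in windows of RefSeq sequence (GRCh38.p14) are printed, 1 of PTMA and 3 of MCL1, to show what lies under and just upstream of a HuR peak. Each is 30 bases long, from 9 bases on the 5′ side of the peak to its end, on the strand of the gene, with runs of at least 4 T in capitals, and positions were read as counting from 1. The PTMA peak lies in the hairpin window of MIR1244-1, and the 3 MCL1 peaks lie in the promoter window of ADAMTSL4-AS1, the gene that starts near the end of MCL1 on the same strand.
PTMA, chr2:231713335-231713364, plus strand: taacTTTTTTgtgtatgtacttagctgtac
MCL1, chr1:150574578-150574607, minus strand: ccctaactttctgTTTTTcctgagaaaaaa
MCL1, chr1:150574651-150574680, minus strand: acTTTTgatagctgtgccaggaagggttag
MCL1, chr1:150574746-150574775, minus strand: gtcttacgcttctctcagggaaaaacatgc
The letters TTTTT stood in the PTMA window and in the first MCL1 window, and ATTTA in none of the 4. On the strand of the peak, TTTTT occurred in 49.3% and ATTTA in 8.4% of 369 windows of the same length cut in the same way at peaks of any class and gene that fell in such RefSeq windows, so the members' windows are a description of these places only. In the fraction libraries the PTMA peak held 25 tags and the MCL1 peaks 15, 10 and 18 tags, in the order printed. The peaks with the most tags, described with each gene, are given by position.

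Values are in CPM: tags in a peak, or summed over all peaks of a gene in 1 annotation class, per 1000000 tags of the library total that the deposited values were divided by. Tags in peaks ranged from 235471 to 673322 in the 12 fraction libraries, from 1353 to 484305 in the 17 inputs and from 519 to 86419 in the 29 enriched libraries. In the fractions, 3 tags, taken as the floor of what a library can show, correspond to 1.71 to 4.37 CPM. Among liver markers, ALB, AFP, APOB, SERPINA1, FGB and TF had 10 to 65 peaks each, and APOA1 and TTR had none. Among markers of other cell types, CD3E, COL1A1, COL1A2 and GFAP had no peak, PTPRC and EPCAM had 5 peaks each and PECAM1 had 1. The nuclear RNA NEAT1 had 413 CPM in the nuclear and 125 CPM in the cytoplasmic mock fraction, whereas MALAT1, also a nuclear RNA, had 2561 and 2394 CPM. The tags are HuR-bound RNA with no matched RNA-seq used here, so more RNA and more HuR on each RNA cannot be told apart, nor can fewer cells and less RNA per cell. Peak lengths are equal but 3'UTR and intron lengths are not, so levels are compared between libraries and not between genes.

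In mock cells, the 3'UTR sums of 6 of the 7 members were lower in CPM in the nucleus than in the cytoplasm. This stands beside 50.2% of all 3'UTR sums, and XIAP did not pass the test. CPM are shares of the tags of each library, so amounts of bound RNA were not compared between fractions. BCL2L1 went both ways, with 3'UTR tags lower and intron tags higher in the nucleus. After arsenite, the 3'UTR tags of BIRC5 and PTMA fell in the cytoplasm, those of MCL1 and PTMA rose in the nucleus, and the BCL2L1 intron tags rose in the cytoplasm. Differences were tested with limma on log2(CPM + 2.28), over all gene-class sums or all peaks, with Benjamini-Hochberg adjusted p below 0.05 as the threshold, and fold changes on this scale understate those of low sums.

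**Figure D1:**
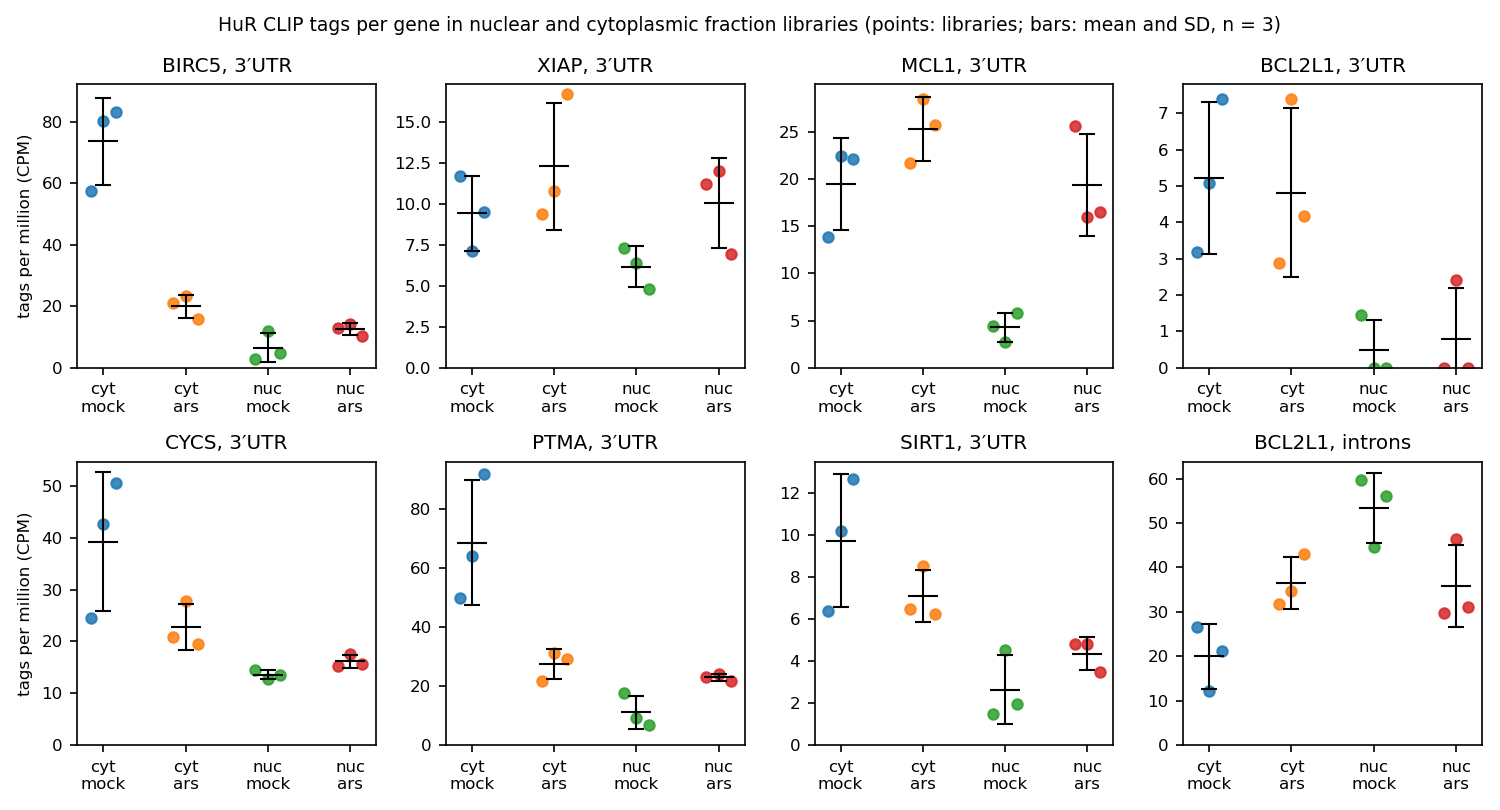
CPM summed over the 3'UTR peaks of each member in the 12 fraction libraries; each point is 1 library and each bar the mean of 3, with a separate linear axis from 0 for each gene. BIRC5 stood at 57.4 to 83.3 CPM in the cytoplasmic mock libraries and at 2.91 to 11.8 CPM in the nuclear mock libraries.

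MCL1 (ENSG00000143384; chromosome 1, 150574558 to 150579610, minus strand, GRCh38.p14), the short-lived guardian of the BCL2 family, had 23 peaks, 14 of them in the 3'UTR, 8 in introns and 1 in coding sequence. Its 3'UTR sum was 13.8, 22.4 and 22.1 CPM in the cytoplasmic mock libraries and 4.37, 2.73 and 5.79 CPM in the nuclear mock libraries. After arsenite it was 21.7, 28.4 and 25.7 CPM in the cytoplasm and 25.6, 16.0 and 16.5 CPM in the nucleus. The nuclear mock libraries stood below all 9 others, and the other 3 groups overlapped their neighbours. In mock cells the nuclear minus cytoplasmic log2 difference was -1.72 (SE 0.31, limma adjusted p = 0.000966). Arsenite raised the nuclear sum by 1.72 (SE 0.29, limma adjusted p = 0.00197), and in the cytoplasm the difference was 0.36 (limma adjusted p = 0.34), which did not pass. All 14 of its 3'UTR peaks had a higher mean in the nuclear arsenite than in the nuclear mock libraries. The change in the nucleus exceeded that in the cytoplasm by 1.36 (SE 0.38, limma adjusted p = 0.0103). The nuclear rise did not pass without nuclear arsenite replicate 1 (limma adjusted p = 0.0611) or 3 (0.0727), and the difference of changes did not pass without cytoplasmic mock replicate 2 (0.0512) or nuclear arsenite replicate 1 (0.0691).

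The MCL1 3'UTR tags were spread over many peaks. The strongest, at chr1:150576639-150576659, held 60 tags in the fraction libraries, 23.4% of the 3'UTR tags of the gene. Intron tags of MCL1 averaged 7.73 CPM in cytoplasmic mock, 10.8 in cytoplasmic arsenite, 5.08 in nuclear mock and 12.6 CPM in nuclear arsenite libraries, and the nuclear difference of 1.09 missed the threshold (limma adjusted p = 0.0598). Of its 23 peaks, 19 lay within the RefSeq gene, and the other 4, labelled as both downstream and intronic in the table, lay beyond its end and are part of this intron sum.

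BCL2L1 (ENSG00000171552; chromosome 20, 31664452 to 31723963, minus strand), whose long product BCL-XL guards mitochondria and whose short splice product promotes death, had 47 peaks, of which 38 lay in introns and 4 in the 3'UTR. Its intron sum was 26.6, 12.2 and 21.1 CPM in cytoplasmic mock libraries and 59.7, 44.5 and 56.0 CPM in nuclear mock libraries. The arsenite libraries had 31.8, 34.7 and 43.1 CPM in the cytoplasm and 29.6, 46.4 and 31.2 CPM in the nucleus. Nuclear mock libraries were above all cytoplasmic libraries, and after arsenite the fractions overlapped. In mock cells the nuclear intron sum was higher by 1.37 (SE 0.26, limma adjusted p = 0.00134). After arsenite the difference between fractions was -0.05 (limma adjusted p = 0.926), and its sign changed under another scaling (0.01). The cytoplasmic intron sum rose by 0.85 with arsenite (SE 0.25, limma adjusted p = 0.0344), and the nuclear sum differed by -0.57 (limma adjusted p = 0.0949). That nuclear difference passed in 2 of the alternatives. The change with arsenite in the nucleus minus that in the cytoplasm was -1.42 (SE 0.32, limma adjusted p = 0.000751). The cytoplasmic rise did not pass when cytoplasmic mock replicate 2 or 3 (limma adjusted p = 0.163 and 0.0925) or cytoplasmic arsenite replicate 1, 2 or 3 (0.13, 0.199 and 0.208) was left out.

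These intron tags were spread along the gene, with a median of 8 tags per peak. The strongest intron peak, at chr20:31693929-31693949, held 52 tags, 10.3% of the intron tags of the gene. Of the 38 intron peaks, 28 had a higher and 6 a lower mean in nuclear than in cytoplasmic mock libraries. With arsenite, 27 of them had a higher mean in the cytoplasm and 25 a lower mean in the nucleus, each counted on its own, and most of these peaks hold few tags. At chr20:31691506 the nuclear mock libraries had 4.37, 2.73 and 3.86 CPM and the cytoplasmic mock libraries had no tag. Pooled, the nuclear level was 3.39 times a floor of 3 tags over the cytoplasmic group, and limma gave 1.37 (adjusted p = 0.0325). The call was lost with edgeR (adjusted p = 0.0719; with TMM factors 0.184) and without cytoplasmic mock replicate 1, 2 or 3 (limma adjusted p = 0.139, 0.0753 and 0.179) or nuclear mock replicate 2 or 3 (0.0979 and 0.126).

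The BCL2L1 3'UTR held few tags. It had 3.19, 5.09 and 7.38 CPM in cytoplasmic mock libraries, and 1 tag in the 3 nuclear mock libraries together. The ratio of the pooled levels, 15 tags against 1, was 14.7 (95% exact interval 2.27 to 620.8, counting error only). After arsenite the cytoplasm had 2.89, 7.39 and 4.17 CPM and the nucleus 3 tags in all, with a ratio of 6.11 (95% exact interval 1.85 to 31.8). The nuclear sums lay at or under the floor, and limma gave -1.44 in mock cells (SE 0.38, adjusted p = 0.0122) and -1.24 after arsenite (SE 0.36, adjusted p = 0.0493). The mock call was lost without cytoplasmic mock replicate 2 or 3 (limma adjusted p = 0.0719 and 0.0638) or nuclear mock replicate 2 or 3 (0.0629 and 0.0614). The arsenite call was lost without any cytoplasmic arsenite replicate (limma adjusted p = 0.112, 0.311 and 0.184 for replicates 1, 2 and 3) and without nuclear arsenite replicate 1 or 3 (0.219 and 0.312), and also with a pseudocount 4 times smaller (0.0696) or larger (0.0617) and when scaled to tags in peaks (0.0527).

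XIAP (ENSG00000101966; chromosome X, 123859708 to 123913972, plus strand), which binds and blocks active caspases, had 31 peaks: 11 in the 3'UTR, 17 in introns and 3 in the class Other. Its 3'UTR sum was 11.7, 7.13 and 9.49 CPM in cytoplasmic mock, 9.39, 10.8 and 16.7 CPM in cytoplasmic arsenite, 7.29, 6.36 and 4.83 CPM in nuclear mock and 11.2, 12 and 6.93 CPM in nuclear arsenite libraries. Every group overlapped at least 1 other. None of its differences between fractions or treatments passed the test: the nuclear sum differed from the cytoplasmic one by -0.47 in mock cells (SE 0.31, limma adjusted p = 0.285), and the strongest peak, at chrX:123912698-123912718, held 31 tags. Its intron sum averaged 12.7 CPM in nuclear and 7.63 CPM in cytoplasmic mock libraries, a log2 difference of 0.61 (limma adjusted p = 0.156).

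BIRC5 (ENSG00000089685; chromosome 17, 78214253 to 78225635, plus strand), which encodes survivin, had 6 peaks, 5 of them in the 3'UTR. Its 3'UTR sum was 57.4, 80.5 and 83.3 CPM in cytoplasmic mock and 2.91, 11.8 and 4.83 CPM in nuclear mock libraries. With arsenite it was 20.9, 23.3 and 16.0 CPM in the cytoplasm and 12.8, 14.4 and 10.4 CPM in the nucleus. The order was thus cytoplasmic mock, cytoplasmic arsenite, nuclear arsenite and nuclear mock, and only the last 2 groups overlapped. In mock cells the nuclear sum was lower, at -3.22 on the log2 scale (SE 0.32, limma adjusted p = 7.44e-06). The cytoplasmic sum fell by 1.76 on the log2 scale with arsenite (SE 0.21, limma adjusted p = 4.41e-05), and the nuclear difference of 0.87 did not pass (limma adjusted p = 0.159), except without nuclear mock replicate 2, where it was 1.28 (0.0414). Between fractions of arsenite-treated cells the difference was -0.59 (limma adjusted p = 0.145). The change with arsenite was 2.63 higher in the nucleus than in the cytoplasm (SE 0.38, limma adjusted p = 1.41e-07). The calls on the mock fractions, the cytoplasm and the difference of changes held under every alternative run, including each left-out library.

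One position carried most of this. The peak at chr17:78224073-78224093, 1542 nt upstream of the end of the RefSeq gene, held 301 of the 371 BIRC5 3'UTR tags in the fractions, 81.1%, and ranked 538 of 37614 3'UTR peaks by tags. It had 45.7, 65.2 and 72.8 CPM in cytoplasmic mock, 18.0, 18.2 and 11.1 CPM in cytoplasmic arsenite, 1.46, 9.09 and 2.90 CPM in nuclear mock and 11.2, 11.2 and 8.66 CPM in nuclear arsenite libraries. This single peak showed the order of the groups seen in the sum. Tested as a peak, it was lower in the nucleus of mock cells by a log2 difference of -3.37 (limma adjusted p = 0.0024), fell by 1.81 with arsenite in the cytoplasm (0.0176) and gave a difference of changes of 2.87 (7.58e-05). Its call on the mock fractions was lost without cytoplasmic mock replicate 1, 2 or 3 (limma adjusted p = 0.0731, 0.0753 and 0.115) or nuclear mock replicate 3 (0.0531). That on the cytoplasm was lost without the same 3 cytoplasmic mock replicates (limma adjusted p = 0.0717, 0.245 and 0.194), and that on the difference of changes without cytoplasmic arsenite replicate 2 (0.0515) or nuclear arsenite replicate 3 (0.0512).

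CYCS (ENSG00000172115; chromosome 7, 25118656 to 25125260, minus strand), which encodes cytochrome c, had 7 peaks, all in the 3'UTR. The sum was 24.5, 42.8 and 50.6 CPM in cytoplasmic mock, 20.9, 27.9 and 19.5 CPM in cytoplasmic arsenite, 14.6, 12.7 and 13.5 CPM in nuclear mock and 15.2, 17.6 and 15.6 CPM in nuclear arsenite libraries. The fractions did not overlap under either treatment, and the treatments overlapped in the cytoplasm. The nuclear sum was lower in mock cells by -1.33 (SE 0.26, limma adjusted p = 0.002), a call lost without cytoplasmic mock replicate 2 (0.0566). The cytoplasmic difference with arsenite was -0.69 (limma adjusted p = 0.0812) and passed without cytoplasmic mock replicate 1 (-0.98, adjusted p = 0.0154), with edgeR (-0.77, adjusted p = 0.0185; with TMM factors 0.0239) and over sums non-zero in every library (0.0206). The difference of changes of 0.90 (limma adjusted p = 0.0835) likewise passed without that library (1.19, adjusted p = 0.0113), with edgeR and TMM factors (1.13, adjusted p = 0.0402) and over sums non-zero in every library (0.0352). The strongest peak, at chr7:25122005-25122025, held 61.1% of the tags, with 14.9, 25.5 and 36.9 CPM in cytoplasmic mock and 11.7, 10.0 and 9.66 CPM in nuclear mock libraries.

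PTMA (ENSG00000187514; chromosome 2, 231708525 to 231713551, plus strand), the prothymosin gene, had 6 peaks, 5 of them in the 3'UTR and 1 in the 5'UTR. Its 3'UTR sum was 50.0, 64.2 and 91.7 CPM in cytoplasmic mock and 17.5, 9.09 and 6.76 CPM in nuclear mock libraries. With arsenite it was 21.7, 31.3 and 29.2 CPM in the cytoplasm and 23.2, 24.0 and 21.7 CPM in the nucleus. Cytoplasmic mock libraries were the highest and nuclear mock libraries the lowest without overlap, and the arsenite fractions overlapped between them. In mock cells the nuclear sum was again lower, at -2.44 (SE 0.30, limma adjusted p = 4.31e-05). With arsenite it fell by 1.23 in the cytoplasm (SE 0.22, limma adjusted p = 0.00195) and rose by 0.99 in the nucleus (SE 0.27, limma adjusted p = 0.0453), and the fractions then differed by -0.22 (adjusted p = 0.607). The difference of changes was 2.22 (SE 0.34, limma adjusted p = 8.84e-07), and it held under every alternative run, as did the call on the mock fractions. The fall in the cytoplasm did not pass without cytoplasmic mock replicate 2 (limma adjusted p = 0.0658) or cytoplasmic arsenite replicate 1 or 2 (0.0566 and 0.0817). The rise in the nucleus did not pass without nuclear mock replicate 2 or 3 (limma adjusted p = 0.144 and 0.173) or nuclear arsenite replicate 1, 2 or 3 (0.207, 0.212 and 0.249), nor with a pseudocount 4 times smaller (0.068).

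The strongest PTMA peak, at chr2:231713467-231713487 and 64 nt from the end of the RefSeq gene, held 52.9% of the 3'UTR tags in the fractions. It had 19.1, 36.7 and 44.3 CPM in cytoplasmic mock and 10.2, 6.36 and 1.93 CPM in nuclear mock libraries (-2.14, limma adjusted p = 0.0321). The next, at chr2:231713170, had 22.3, 19.4 and 27.4 CPM in cytoplasmic mock and 7.29, 2.73 and 3.86 CPM in nuclear mock libraries (-1.92, limma adjusted p = 0.0129). In both peaks the cytoplasmic mock libraries stood above the nuclear ones without overlap. The first call was lost without any 1 of the 6 mock libraries (limma adjusted p between 0.0589 and 0.202), with a pseudocount 4 times smaller (0.058) and with edgeR and TMM factors (0.0717), and the second without cytoplasmic mock replicate 1, 2 or 3 (0.133, 0.0753 and 0.173) or nuclear mock replicate 2 or 3 (0.128 and 0.126). The peak whose sequence is printed above, inside the MIR1244-1 hairpin, had 1, 5 and 10 tags in cytoplasmic mock and none in nuclear mock libraries. Pooled, the cytoplasmic level was 5.24 times a floor of 3 tags over the nuclear group, but the libraries were uneven and the difference did not pass the test (-1.58, limma adjusted p = 0.0921). The 5'UTR peak had 5 tags in the nuclear arsenite and none in the nuclear mock libraries, 1.29 times that floor when pooled, a difference that did not pass the test (0.64, limma adjusted p = 0.14). It had 2.13, 0 and 3.16 CPM in cytoplasmic mock and 1 tag in the 3 cytoplasmic arsenite libraries, and the difference of changes was 1.27 (SE 0.41, limma adjusted p = 0.0286). That call rests on few tags and was lost without any 1 of 10 of the 12 libraries, those other than cytoplasmic mock replicate 2 and nuclear arsenite replicate 2, with limma adjusted p between 0.0609 and 0.105.

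SIRT1 (ENSG00000096717; chromosome 10, 67884656 to 67918390, plus strand), the deacetylase, had 31 peaks, 22 in introns, 8 in the 3'UTR and 1 in a transposable element. Its 3'UTR sum was 6.38, 10.2 and 12.7 CPM in cytoplasmic mock, 6.50, 8.53 and 6.26 CPM in cytoplasmic arsenite, 1.46, 4.55 and 1.93 CPM in nuclear mock and 4.80, 4.80 and 3.47 CPM in nuclear arsenite libraries. Cytoplasmic libraries stood above nuclear libraries under each treatment. In mock cells the nuclear sum was lower by -1.30 (SE 0.37, limma adjusted p = 0.0176). This call was lost without cytoplasmic mock replicate 2 or 3 (limma adjusted p = 0.103 and 0.0963) or nuclear mock replicate 1 or 3 (0.0835 and 0.0629). The strongest peak, at chr10:67916799-67916819, held 24 tags in the fraction libraries, 28.2% of the 3'UTR tags of the gene. The intron sum averaged 12.3 CPM in nuclear and 7.31 CPM in cytoplasmic mock libraries (0.55, limma adjusted p = 0.307).

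**Figure D2:**
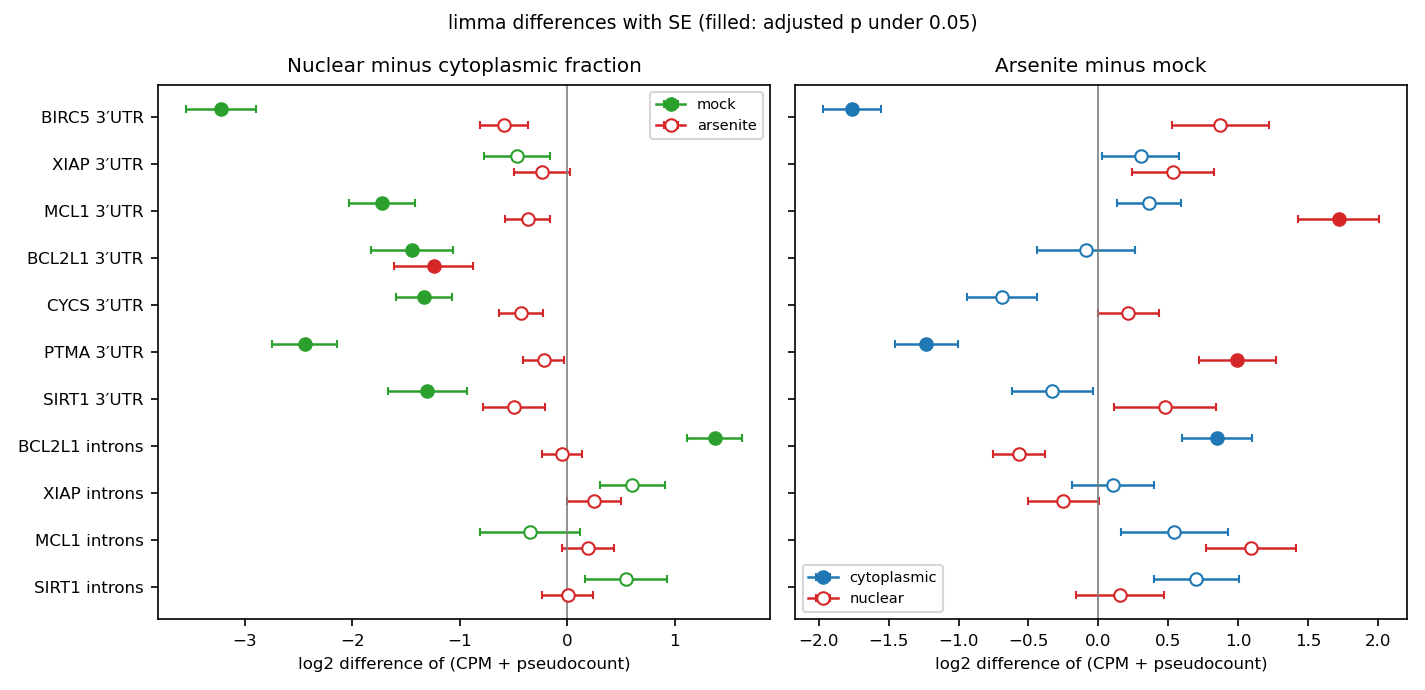
Log2 differences (limma, on CPM + 2.28) of the member sums with bars of 1 SE: nuclear against cytoplasmic fraction in mock and arsenite cells, and arsenite against mock in each fraction, with filled points for adjusted p below 0.05. The mock differences reach -3.22 for BIRC5, and after arsenite the 3'UTR differences lie between -1.24 (BCL2L1) and -0.22 (PTMA).

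Read against all genes, the direction of most members was that of 3'UTRs at large. In mock cells 7 of the 15 member sums tested were called between fractions, beside 29.6% of all gene-class sums tested. Of the 7 member 3'UTR sums, 6 were called lower in the nucleus, beside 50.2% of all 3'UTR sums, and the members' median difference was -1.44 beside -0.98 over all 6091. All 21294 sums of this comparison had a median of 0.11, which edgeR with TMM factors moved to -0.07, and the split of calls went from 2735 higher and 3566 lower to 1204 higher and 3778 lower, with 1 member sum higher and 6 lower in both. After arsenite, 1 of 16 member sums was called between fractions, beside 4.98% of all, and 1 of 7 3'UTR sums was called lower, beside 9.87%. Their median was -0.43, beside -0.17 over all 3'UTR sums. The arsenite counts are near the background and are not a result about the members. A sum was tested only where enough libraries had tags, so the tested members are not all members' sums.

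For arsenite against mock in the cytoplasm, 3 of 16 member sums were called, beside 13.3% of all sums. Of 7 member 3'UTR sums, 2 (BIRC5 and PTMA) were called lower, beside 18.6%, with a median of -0.33 beside -0.30 over all. In the nucleus, 2 of 15 member sums were called, beside 6.13%. Of the 6 member 3'UTR sums tested there, MCL1 and PTMA were called higher, beside 13.8% of all, with a median of 0.70 beside 0.39. For the difference of the 2 changes, 5 of 17 member sums were called, beside 11%, and 3 of 7 3'UTR sums were called higher, beside 24.2%, with a median of 0.90 beside 0.63. Introns moved the other way at large as well: 25.2% of all intron sums were called higher in the nucleus of mock cells (1 of 4 member intron sums, BCL2L1), 13.5% higher in the cytoplasm with arsenite (1 of 4, BCL2L1) and 9.32% lower in the difference of changes (1 of 4, BCL2L1). The comparisons share libraries, so their counts are not independent of each other.

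Peak by peak, few places passed. Of 75 member peaks tested between mock fractions, 4 were called, beside 2.82% of all peaks: 1 in BIRC5, 2 in PTMA and 1 in a BCL2L1 intron. None of 117 was called between arsenite fractions by limma, beside 0.257%, none by edgeR, and 6 had an unadjusted p below 0.05. Of 95 tested for arsenite in the cytoplasm, only the BIRC5 peak at 78224073 was called, beside 0.76%. None of 93 was called for arsenite in the nucleus by limma, beside 0.186%, none by edgeR, and 15 had an unadjusted p below 0.05. For the difference of changes 2 of 146 were called, beside 0.352%: the BIRC5 peak named above and the PTMA peak at 231713467 (2.02, limma adjusted p = 0.0366). The latter was lost without any 1 of 11 of the 12 libraries, all but cytoplasmic mock replicate 1, with limma adjusted p between 0.0562 and 0.405, and also with a pseudocount 4 times larger (0.197) and when scaled to tags in peaks (0.139). In mock cells all 3'UTR peaks of PTMA, BCL2L1, CYCS, SIRT1 and BIRC5 had a lower mean in the nucleus, as did 12 of 14 in MCL1 and 7 of 11 in XIAP.

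**Figure D3:**
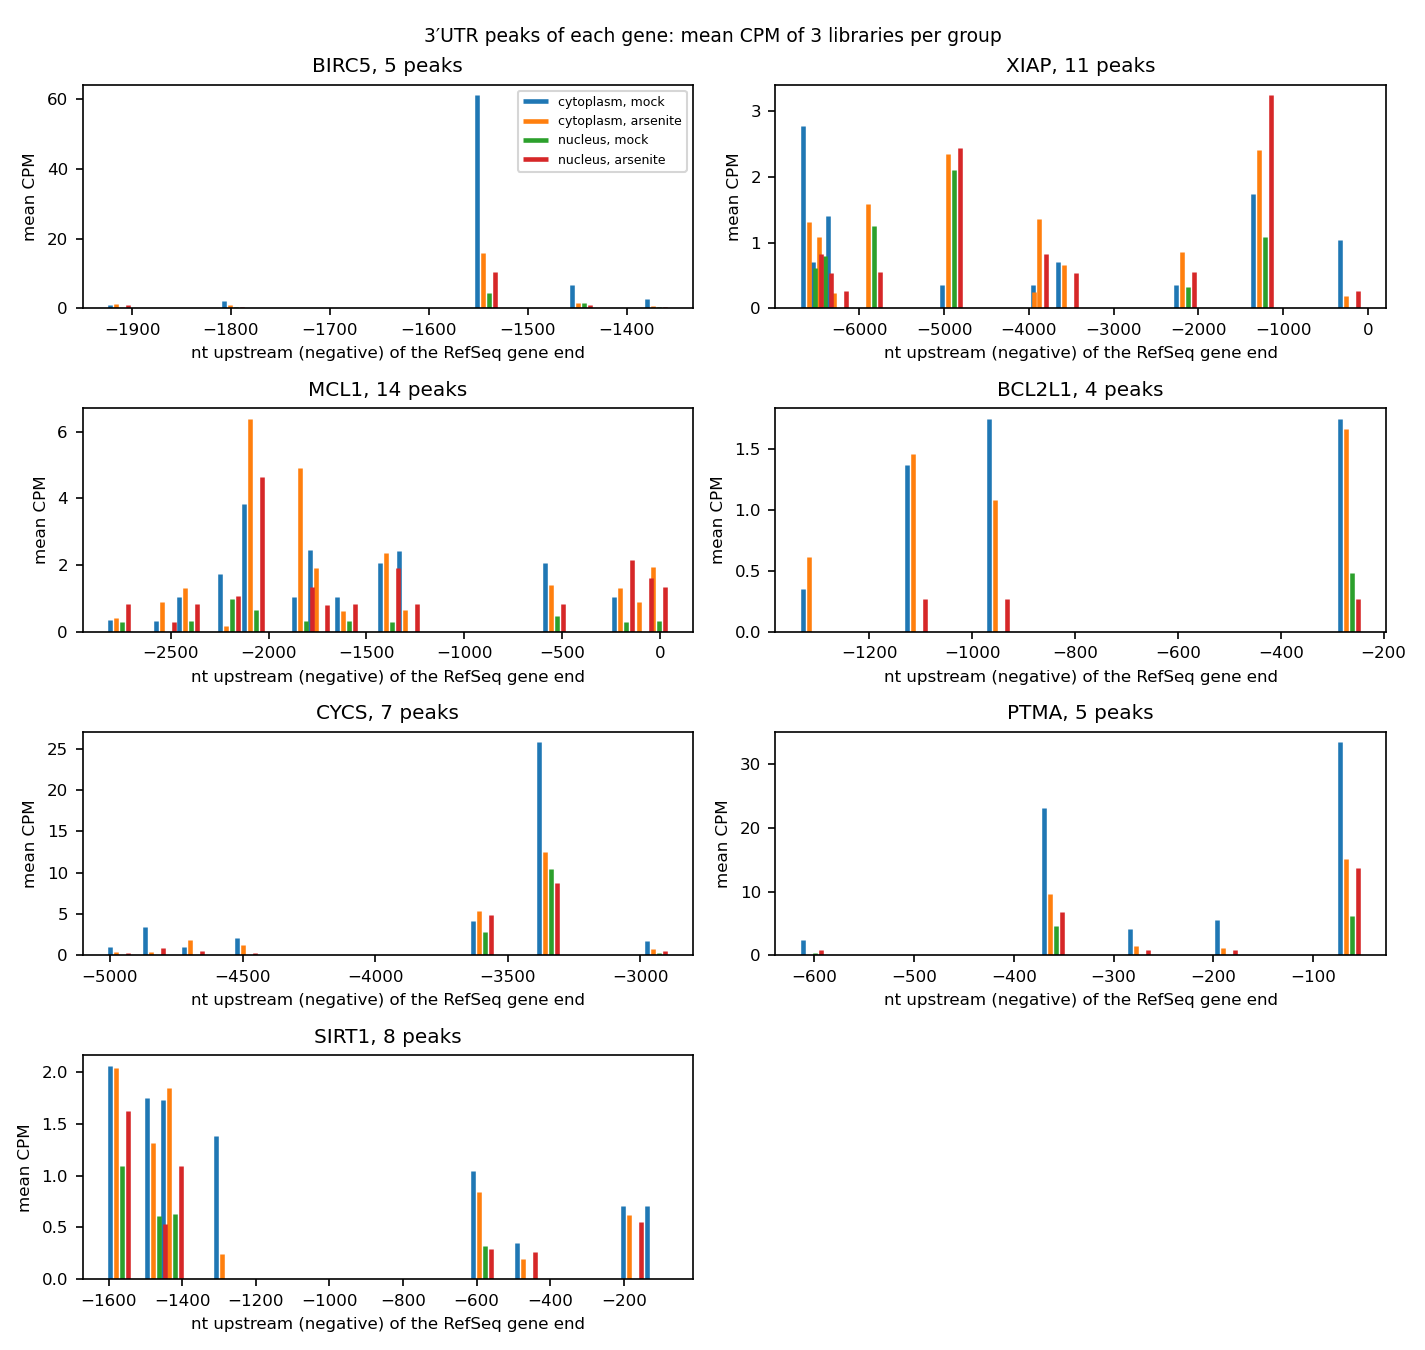
Mean CPM of each member 3'UTR peak in the mock and arsenite fractions by distance from the 3′ end of the RefSeq gene. BIRC5 has 1 dominant peak 1542 nt from the end, whereas the MCL1 3'UTR tags are spread over 14 peaks.

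The share of a gene's tags that lay in the 3'UTR was computed for each fraction group. For BCL2L1 it averaged 21.3% in cytoplasmic mock, 11.2% in cytoplasmic arsenite, 0.775% in nuclear mock and 1.56% in nuclear arsenite libraries, with 75.3%, 85.4%, 91.6% and 95.1% in introns. SIRT1 had 56.9% of its tags in the 3'UTR in cytoplasmic mock and 20.4% in nuclear mock libraries. Under arsenite it had 35.5% in the cytoplasm and 25% in the nucleus. MCL1 had 68.5% in cytoplasmic mock and 43.6% in nuclear mock libraries, and XIAP 50.6% and 29.2%. Single mock libraries of the 2 fractions overlapped for SIRT1, MCL1 and XIAP. BIRC5 had 98.6% in cytoplasmic mock and 70.1% in nuclear mock libraries without overlap, the latter from 27 tags in all. The PTMA share was 97.5% in cytoplasmic mock and 100% in nuclear mock libraries, and CYCS had 100% throughout. These shares are means of 3 libraries, were not tested, and follow from the sums already given.

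**Figure D4:**
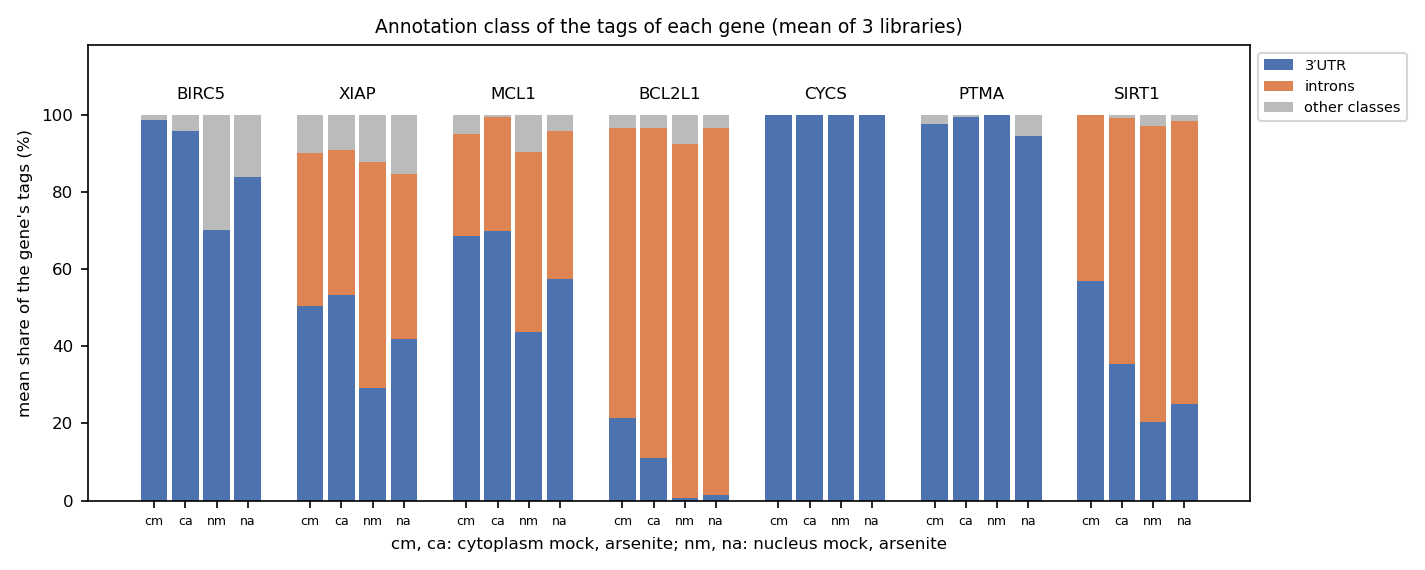
Mean share of each member's tags by annotation class in the 4 fraction groups, in percent, each the mean of 3 libraries. The BCL2L1 bars are mostly intron in all 4 groups, and all CYCS tags lie in the 3'UTR.

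Processed copies of 2 members bear on their values. RefSeq lists 15 PTMA pseudogenes, and 11 of them held 31 peaks with 1833 tags in the fractions, beside 448 tags at PTMA itself. Peaks in a copy were taken on either strand and whatever gene name the table gives them. It lists 45 for CYCS, of which 4 held 10 peaks with 34 tags, beside 316 at CYCS. XIAP has 3 such copies with no peak, and the other members have none listed. The counts at a copy and at its parent cannot be told apart where their sequences are the same: the 4 MIR1244 hairpins, 1 in PTMA and 3 in its copies, have the same 85 bases. How reads with several matches were placed is not given in the sources used here. PTMAP5, on chromosome 13, averaged 72.1 CPM in cytoplasmic mock, 32.0 in cytoplasmic arsenite, 9.84 in nuclear mock and 20.3 CPM in nuclear arsenite libraries, and the PTMA 3'UTR itself 68.6, 27.4, 11.1 and 23.0 CPM. PTMAP2, on chromosome 5, averaged 86.9, 28.1, 8.0 and 20.4 CPM in the same order. Of the 11 copies with peaks, 8 had their highest mean in the cytoplasmic mock libraries, as PTMA did, and 3 in the cytoplasmic arsenite libraries, among them PTMAP11 with 5.61 CPM in cytoplasmic mock and 10.2 CPM in cytoplasmic arsenite.

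With the copies' tags added to the PTMA 3'UTR sum, an alternative chosen after the data were seen, the mock difference between fractions was -2.84 (limma adjusted p = 8.43e-07). The arsenite difference between fractions then passed, at -0.59 (limma adjusted p = 0.00434). The difference of changes was 2.24 (limma adjusted p = 3.62e-12). For CYCS, adding the copies gave -1.50 between mock fractions, and its difference of changes then passed, at 1.07 (limma adjusted p = 0.0299).

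The other genes of the pathway were taken from a list of 40, drawn from the BCL2 family, the inhibitors of apoptosis, the apoptosome and caspases, the sirtuins and the prothymosins, by their 3'UTR sums. Between mock fractions 7 of 18 tested were lower in the nucleus and none higher, with a median of -0.87, beside 50.2% lower and a median of -0.98 over all 3'UTR sums. Among these were PMAIP1 (a death-promoting BCL2 relative that binds MCL1), the inhibitor of apoptosis BIRC6, the apoptosome scaffold APAF1, the caspase CASP2 and the adaptor CRADD. After arsenite 1 of 21 was higher in the nucleus (BIRC6, 0.62, limma adjusted p = 0.038) and 1 lower (BAX, the pore former of mitochondria, -1.25, adjusted p = 0.0128), beside 1.03% higher and 9.87% lower over all 3'UTR sums. In the cytoplasm, arsenite lowered 2 of 20, among them BIRC6, and raised none, beside 18.6% lowered over all 3'UTR sums. In the nucleus, it raised 3 of 20, BIRC6, APAF1 and CRADD, and lowered none, beside 13.8% raised. Of 23 tested for the difference of changes, 3 were called higher, among them BIRC6 and APAF1, beside 24.2%. Apart from the 1 gene called higher between arsenite fractions, the list's shares lie near or below those of all 3'UTR sums, and none of the counts is a result about the list.

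BIRC6, a large ubiquitin ligase of the survivin family, was called in all 5 comparisons and is described for that reason, after its values were seen. It averaged 80.9 CPM in cytoplasmic mock, 28.2 in cytoplasmic arsenite, 16.4 in nuclear mock and 44.9 CPM in nuclear arsenite libraries. Its nuclear sum rose with arsenite by 1.32 (SE 0.19, limma adjusted p = 0.000591). APAF1, the partner of cytochrome c, averaged 10.5, 9.62, 2.04 and 11.8 CPM in the same order and rose in the nucleus by 1.71 (SE 0.30, limma adjusted p = 0.00291). MCL1 likewise had its lowest values in the nuclear mock libraries.

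Across the 12 fraction libraries, the 3'UTR sums of 2323 genes with at least 100 tags were ranked by Pearson correlation with each member, as a description with no test, since the points share depth and 4 group means. BIRC5 was most like TOR1AIP2 (0.982) and HSP90B1 (0.979), PTMA was most like SELENOP (0.973) and BTBD1 (0.972), and CYCS was most like PRXL2A (0.966) and ALDH1A1 (0.964). MCL1 was most like NADK2 (0.978) and MSI2 (0.970). XIAP, whose groups overlapped, reached only 0.83 with CDKN1B and 0.81 with ERCC8. BCL2L1 and SIRT1 had under 100 tags in the 3'UTR and were not ranked.

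In the APEX lines the members were thinly covered, and the libraries were uneven in depth. In the enriched libraries, 5 pairs within library set JL0388 did not differ beyond the sampling noise (chi-square statistic over the top peaks by simulation, p between 0.059 and 0.79). They were 1 pair each of G3BP arsenite, G3BP mock, NES arsenite, NLS arsenite and NLS mock enriched libraries. Each may thus be 1 library deposited more than once, but the pairs held only 700 to 4651 tags in these peaks. With so few tags the test could also miss differences between separate libraries. An alternative counted every JL0388 pair of enriched libraries as 1 sample and left the counts of member calls as they were. It also merged the NES mock pair, which did differ beyond the sampling noise (chi-square statistic by the same simulation, p = 0.003). Group values are given as tags and no mean is drawn from them. The BCL2L1 intron sum had 3, 1, 2 and 2 tags in the 4 NLS enriched mock libraries and none in the 8 NES enriched libraries. Pooled, NLS mock stood at 5.90 CPM, below the floor of 9.74 CPM that 3 tags mean over the 4 NES mock libraries, so no fold is given. limma gave 1.95 (SE 0.51, adjusted p = 0.0217; 0.0445 with the pairs counted once) for it, 1 call of 2 member sums tested, beside 20.8% of all sums. The call was lost with edgeR (adjusted p = 0.267; with TMM factors 0.0999), with a pseudocount 4 times larger (limma adjusted p = 0.0545), with no filter on low values (0.413) and without NES enriched mock replicate 1, 2, 3 or 4 (limma adjusted p = 0.159, 0.151, 0.111 and 0.0974). The median over all sums in that comparison was 1.07. Within set JL1024 alone, 4 of 5 member sums tested were called higher in NLS, beside 31.9% of all sums and a median of 0.90 over them, among them the 3'UTR sums of MCL1 and PTMA at 0.90, each of which rests on 1 tag in each of 2 NLS libraries and none in the NES libraries.

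The other captures gave no called member over all library sets. For NLS against NES with arsenite, 0 of 3 member sums were called by limma, beside 14%, none by edgeR, and none had an unadjusted p below 0.05. For G3BP against NES, 0 of 1 was called in mock cells, beside 0%, and 0 of 3 with arsenite, beside 3.16%, with none by edgeR and none at an unadjusted p below 0.05 by limma in either. Within set JL1024 limma called the BCL2L1 intron sum higher in G3BP than in NES mock libraries (1.89, adjusted p = 0.0189), 1 of 6 member sums tested beside 40.4% of all. It rests on 8 tags against none, and the G3BP level of 6.26 CPM lies below the 13.6 CPM that 3 tags mean over the NES libraries, so no fold is given. In the 7 G3BP enriched arsenite libraries the PTMA 3'UTR had 0, 18, 17, 3, 0, 1 and 2 tags, and that of BIRC5 0, 4, 16, 7, 1, 0 and 0. Tags of both came mainly from replicates 2 and 3, the deepest of that group. In the 6 G3BP enriched mock libraries the PTMA sum had 6 tags and the BIRC5 sum 6. Over the same 7 arsenite libraries XIAP had 15 tags, CYCS 14, SIRT1 13 and MCL1 3. The BCL2L1 3'UTR had no tag in any of the 29 enriched libraries.

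Among inputs, arsenite was compared with mock over all lines. None of 12 member sums passed by limma, beside 0% of all sums, and 2 had an unadjusted p below 0.05. edgeR on whole tags called 3, the 3'UTR sums of BIRC5 (1.13), MCL1 (1.39) and CYCS (1.35), beside 8.75% of all sums. Within library set JL0388 limma called 1 of 13, MCL1 (1.48, adjusted p = 0.00335), beside 2.89%. The CYCS sum was uneven, with 65.8 and 83.7 CPM in replicates 2 and 3 of the G3BP arsenite inputs, both of library set JL0361, and 0, 4.82 and 5.53 CPM in the other 3. In the 12 inputs of the other groups it reached at most 9.15 CPM. The PTMA sum had 30.7 and 29.8 CPM in the same replicates and 58.6 CPM from a single tag in replicate 1, whose depth is low. The part of library set and depth in these values was not tested.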

How the data were processed

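HuR CLIP-seq was analysed in 58 libraries of Huh-7.5 cells, grouped by compartment, capture and treatment in their titles. The authors deposited 1 table of signal per peak and library; each value is the tags in a 20 nt peak divided by a library total (4662 to 2622677 tags, from the values). Whole tags were recovered for 100% of values (tolerance 0.01). Per the submitters' processing notes, Bowtie2, SAMtools, bedtools, HOMER and GRCh38.p14 were used; their roles, versions, duplicate removal and strand handling are not given in the sources used here. Peak positions are those of the table, which does not say whether counting starts at 0 or 1.

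Of 395471 lines, 8257 repeated another and were dropped. Of the peaks, 84358 carry no gene name. Members were matched by gene name and summed by class, among 30332 sums over 13836 genes. The members, the gene lists and the rule for named peaks were chosen with earlier results of these data known. Named peaks are those called, plus the strongest of each member. Signal, as CPM, was tested on the log2 scale (pseudocount 2.28 CPM) with limma 3.58.1 (R 4.3.3; lmFit, eBayes with trend) over all features with tags in no fewer libraries than make up the smaller group, using only the groups compared (all 12 fraction libraries for the interaction), two-sided, and called at a Benjamini-Hochberg adjusted p below 0.05. edgeR 4.0.16 (glmQLFit, glmQLFTest) on whole tags called 7, 1, 4, 2 and 5 member sums for the mock fractions, arsenite fractions, cytoplasm, nucleus and interaction, where limma called 7, 1, 3, 2 and 5. Tests were tested on simulated data. Same-numbered libraries did not deviate together (correlations -0.0099 to 0.0315). Exact and binomial intervals cover counting error only, and folds over a floor leave out the counting error of the higher group. Alternatives were the pseudocount, filter, scaling, test, replicate block, left-out replicates, library set and, added later, near copies. Some genes of the lists are not reported here by name.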

Additional observations from a re-analysis of the deposited data

Results flagged for a closer look

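The change with arsenite differed between the nuclear and the cytoplasmic fraction for 5 member sums and 2 peaks, by the interaction term of limma, beside 11% of all sums and 0.352% of all peaks, with the nuclear change the higher where the value is positive. The log2 difference of differences was 2.63 for the BIRC5 3'UTR, 2.22 for the PTMA 3'UTR, 1.36 for the MCL1 3'UTR, 1.27 for the PTMA 5'UTR and -1.42 for the BCL2L1 introns. It was 2.87 for the BIRC5 peak at 78224073 and 2.02 for the PTMA peak at 231713467. Of the 7 member 3'UTR sums tested, 3 were called higher, beside 24.2% of all 3'UTR sums. The call on the PTMA 5'UTR held in 10 of 20 alternatives and that on the PTMA peak in 7 of 20.

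Among input and enriched groups of 4 to 10 libraries, 2 sums had 1 library set apart from the rest in CPM that itself held more than 3 tags. The CYCS 3'UTR had 5.23 CPM (4 tags) in G3BP mock input replicate 3 and none in the other 3. The SIRT1 3'UTR had 45.1 CPM (4 tags) in G3BP arsenite enriched replicate 4, against at most 14.9 CPM in the other 6, although the deeper replicate 3 held 7 tags. Chance sets a library apart in about 1 in 20 groups of normally distributed values. Here 21 of 51 groups had 1 set apart, 19 of them with 3 tags or fewer, so that rate does not describe these sums.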

How the results depend on the processing

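Limits: the members hold few tags outside the fractions, several groups compared hold 3 tags or fewer, and tags of PTMA and CYCS cannot always be told apart from those of their copies. Over 48 single results, 778 alternatives gave 660 with the same direction and side of the threshold, 96 that no longer passed, 12 that now passed and 10 with the sign turned. Member peaks called between mock fractions (4 in the report) were 7 with no filter and 2 with edgeR and TMM factors; for arsenite in the cytoplasm (1) they were 4 with the smaller pseudocount, 5 with peaks non-zero in every library and 3 with edgeR; for arsenite in the nucleus (0) they were 2 when non-zero in every library; for the interaction (2) they were 1 with the larger pseudocount and 1 scaled to tags in peaks. Member sums called between arsenite fractions (1) were 0 with either other pseudocount, with sums non-zero in every library or scaled to tags in peaks, and 2 with near copies added; for arsenite in the nucleus (2) they were 1 with the smaller pseudocount and 4 when non-zero in every library. NLS against NES in mock cells (1) gave 0 with the larger pseudocount, no filter, the non-zero filter, edgeR and edgeR with TMM, and 4 within JL1024; G3BP against NES in mock cells (0) gave 1 within JL1024; inputs (0) gave 3 with edgeR, 2 with TMM and 1 within JL0388. Leaving out 1 library gave 0 to 9, 0, 0 to 8, 0 to 4 and 0 to 2 called peaks, and 5 to 7, 0 to 1, 1 to 4, 0 to 2 and 3 to 5 called sums (mock fractions, arsenite fractions, cytoplasm, nucleus, interaction), 0 to 1 for NLS against NES in mock cells and 0 for the other APEX comparisons. With the replicate block, sums gave 7, 1, 3, 3 and 5 and peaks 3, 0, 1, 0 and 2, with the BCL2L1 peak at 31691506 the mock peak no longer called (adjusted p = 0.0581 in limma); the numbers do not pair the libraries. Signs turned for 3 weak BCL2L1 results, and the cause was not tested: the intron difference between arsenite fractions was 0.013 when scaled to tags in peaks and 0.011 with TMM, and -0.24 to 0.073 without 1 library; the 3'UTR difference in the cytoplasm was -0.34 to 0.11 without 1 library; and the 3'UTR interaction was -0.15 to 0.45 without 1 library.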
